A study of Mus musculus with 132 samples.

Results

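The genes described here are 53 enzymes and complex subunits that place, remove or use histone marks or move nucleosomes. They were taken by gene symbol from the count table, and all 53 were found among its 32245 genes. They fall into 10 families: Polycomb repressive complex 2 (PRC2, 7 genes), Polycomb repressive complex 1 (PRC1, 7), methyltransferases of histone H3 lysine 4 (6), of lysines 36 and 79 (3) and of lysine 9 with their partner KAP1 (5), arginine methyltransferases (3), lysine demethylases (9), acetyltransferases (4), deacetylases (4) and chromatin remodellers (5). All 53 genes lie on autosomes.

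Transcripts were measured by Smart-seq2, a full-length method without molecular identifiers, in 132 single cells picked with glass capillaries from mouse preimplantation embryos. The question was what a mimic of miR-381-3p does to these embryos. C57BL/6 x DBA F1 females (C57BL/6NCrl x DBA/2NHsd in the study's methods), superovulated with PMSG and hCG, were mated with males of that same cross. Their 2-cell embryos were cultured in KSOM medium with either the miR-381-3p mimic or a scrambled negative control mimic, at 5 or 10 µM. The 4 groups were 30 control cells and 24 mimic cells of the 8-cell stage (embryonic day E2.5), and 39 control cells and 39 mimic cells of the 32-cell stage (E3.5). Each group came from 3 to 5 embryos, but the embryo and the dose of a cell are not given in the labels. The study's text gives the higher dose for the 8-cell and the lower dose for the 32-cell embryos, with the control mimic at the same concentration. The stage comparisons in both treatments, and mimic changes set side by side across stages, thus also compare doses. The labels name no transgene, and all groups, controls included, had received a synthetic small RNA in culture.

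Each group was therefore 1 sample, and no test between groups could be made. Levels are counts per 1000000 non-mitochondrial counts (CPM) summed over the cells of a group, with exact Poisson 95% intervals that cover counting error alone and leave out differences among cells and embryos. A change is the difference of log2(pooled CPM + 1), and a change of at least 1 in either direction is called 2-fold. Totals per cell lay between 544866 and 3461022 counts, and 3234 to 8973 genes had a count in a cell. The 3 cells with under 5000 genes were all 8-cell mimic cells. Markers of cumulus cells, the follicle cells around an egg, were nearly absent (at most 0.657 CPM summed over 8 genes in any group). Cells with more counts of Y-linked genes than of Xist numbered 7 of 30 and 8 of 24 at the 8-cell stage, in control and mimic. At the 32-cell stage they were 39 of 39 control cells and 0 of 39 mimic cells. The mimic comparison at the 32-cell stage thus cannot be told apart from a comparison of XY with XX embryos. The share of cells with more Y-linked than Xist counts also changed with stage, upward in control and downward in mimic cells. Stage changes, and their differences between treatments, thus mix stage with this shift. Fewer embryos than cells stand behind every value.

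PRC2 places methyl groups on lysine 27 of histone H3, and PRC1 places ubiquitin on histone H2A. Both marks go with gene repression. Methylation of lysine 4, placed by the COMPASS-type enzymes, goes with active promoters and enhancers, and methylation of lysine 9 goes with heterochromatin and silenced retroelements. Acetylation by p300, CBP and their relatives loosens chromatin, and deacetylases remove it. In the early mouse embryo these marks are rebuilt on the parental genomes while the inner cell mass (ICM) and the trophectoderm (TE) separate.

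The agent and its best match among these genes are shown first. This match is the only 8-base site among the members. Its gene had the largest fall of a member under the mimic at the 8-cell stage, as a difference of log2(CPM + 1). A link between the site and the fall was not tested. The mature miRNA is from RefSeq (GRCm38.p6, chr12:109726870-109726891, plus strand), with its seed, bases 2 to 8, in capitals. The site is in the 3' UTR of Rnf2 (GRCm38, chr1:151470755-151470784, minus strand), where capitals mark the 8 bases that pair with the seed followed by an A, at bases 543 to 550 of a 1911-base UTR.

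miR-381-3p: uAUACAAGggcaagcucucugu

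Rnf2 site: ccccttgaagtCTTGTATAtttatagtttt

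The 8-base site CTTGTATA, searched on the transcript strand of the longest annotated 3' UTR, was in 654 of 21019 genes (3.11%) and in 1 of the 53 members (1.89%). A 7-base match, CTTGTAT or TTGTATA, both of which lie within the 8-base site, was in 21.4% of genes and in 20 members (37.7%): Bmi1, Cbx8, Chd1, Chd4, Crebbp, Dot1l, Ehmt1, Hdac2, Kdm1b, Kdm2b, Kdm5a, Kmt2a, Kmt2c, Kmt2d, Nsd1, Rnf2, Setdb1, Sirt1, Smarca5 and Suv39h2. The members also had longer 3' UTRs, with a median of 1631 bases against 961 bases over all genes. Among the genes past the level minimum (a mean of at least 10 CPM), 26.5% had a 7-base match and 3.86% the 8-base site, with a median 3' UTR of 1188.5 bases. A match is a match of letters, not a site shown to be used.

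The levels of the 53 genes varied widely. Of them, 48 had a mean of at least 10 CPM over the 4 groups, the minimum used for all counts of genes past 2-fold, and 8277 genes in all had it. Phf19, Ring1, Cbx2, Cbx8 and Kdm4a did not. Per kilobase of annotated exon, the median level of the members past the minimum was 14.9 CPM, against 11.9 CPM over all such genes. The highest member of each family on this scale was Mtf2 at 137 CPM per kilobase, Trim28 at 121, Hdac1 at 99.7, Prmt5 at 71.5, Smarca4 at 56.8, Rnf2 at 44.3, Crebbp at 34.7, Setd2 at 30.5, Kdm6b at 21.4 and Kmt2c at 18.4. Within the families the range was wide. Jarid2 reached 68.2 CPM per kilobase and Phf19 0.395, although both encode accessory proteins of PRC2. In PRC1 the catalytic subunit gene Rnf2 stood far above its paralog Ring1, at 0.861 CPM per kilobase.

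**Figure D1:**
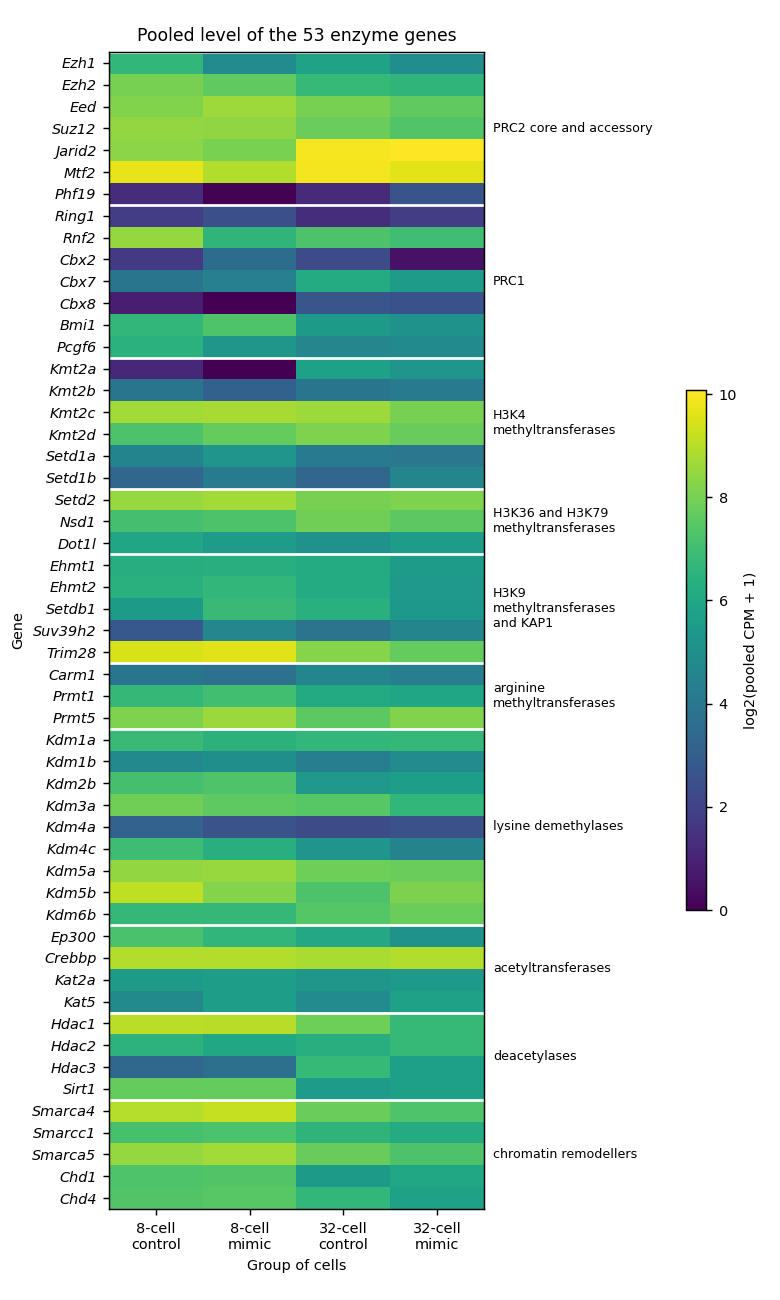
Heat map of the pooled level of the 53 genes (rows, ordered by family) in the 4 groups of cells (columns). Colour gives log2(pooled CPM + 1). Jarid2 and Kmt2a are brighter in both 32-cell groups, Sirt1 and Chd1 are darker there, and Crebbp keeps nearly the same colour across all 4 groups.

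The first comparison asked how the genes changed with development. From the 8-cell to the 32-cell stage more members fell than rose. In control cells 13 of 48 were lower by 2-fold or more (27.1%), against 19.2% of all genes past the minimum, and 5 were higher (10.4%), against 29%. In mimic cells 18 were lower (37.5%), against 17.9%, and 5 were higher, against 28.4%. The median change over all 53 members was -0.44 in control cells and -0.49 in mimic cells, while the median over all genes past the minimum was 0.20 in both. Without the first run of 8-cell control cells, which leaves 2 cells in that group, the members' median in control was 0.01 and that of all genes 0.48. Scaling by median-of-ratios size factors moved the median of all genes by -0.12 in control and -0.19 in mimic cells. Members lower by 2-fold in both treatments were Ezh2, Bmi1, Trim28, Kdm2b, Kdm4c, Ep300, Hdac1, Sirt1, Smarca4 and Chd1. Jarid2, Cbx7, Kmt2a and Hdac3 were higher by 2-fold in both. Under the 19 alternatives in control cells, Hdac1 came within 2-fold in 5, Bmi1 in 4, Ep300 in 3, Smarca4 in 2, and Ezh2, Kdm2b and Kdm4c in 1 each. The change was -0.21 for Ep300 among cells whose Y-linked counts exceeded Xist, -0.43 for Bmi1 in ICM-like cells by marker score, and -0.29 for Kdm4c and -0.53 for Kdm2b without the first 8-cell control run. In mimic cells Ezh2 came within 2-fold in 5, Cbx7 in 6 and Ep300 in 1, while Trim28, Sirt1 and Chd1 stayed past it under all 19 in both treatments. Among members past 2-fold in mimic cells alone, Smarcc1 came within it in 8, Kdm6b in 5, Suz12 and Prmt1 in 3 each, and Ehmt2 and Setd1a in 2 each.

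In PRC2, the methyltransferase gene Ezh2 was lower at the 32-cell stage and the accessory gene Jarid2 was higher. Ezh2 ran from 101.7 CPM to 534 CPM over single 8-cell control cells with a median of 219, and from 2.27 to 306.5 with a median of 92.3 over 32-cell control cells. Its pooled level was 256 CPM and 106.6 CPM in control, and 196 CPM and 94.96 CPM in mimic cells, a change of -1.26 and -1.04. Suz12, which holds the complex together, changed by -0.67 in control and by -1.06 in mimic cells. Eed, the subunit that reads the methyl mark, changed by -0.14 and -0.98. Jarid2, which helps to bring PRC2 to its targets, went the other way. Its cells ran from 102.03 to 678 CPM (median 314) in 8-cell control and from 186 to 1639 CPM (median 915) in 32-cell control. In the mimic groups they ran from 12.1 to 532 CPM (median 278) and from 92.1 to 1746 CPM (median 1159). The stages overlapped in single cells, but each 32-cell median lay above the highest 8-cell cell of the same treatment. The pooled change of Jarid2 was 1.64 in control and 2.02 in mimic cells. Ezh1, the second PRC2 methyltransferase, changed by -0.84 in control cells and by 0.06 in mimic cells, where its 8-cell level was already low. Mtf2, which binds PRC2 to unmethylated CpG-rich DNA, changed by 0.13 and 0.73. Phf19, its relative, had 1.44 CPM in 8-cell control and 1.34 CPM in 32-cell control cells. Under the mimic it had 0.0324 CPM, from 1 count, and 5.15 CPM, from 4 of 39 cells.

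In PRC1, subunits changed in opposite directions. Cbx7, which reads methylated lysine 27, rose from 14.3 to 73.3 CPM in control cells (change 2.28) and from 20.2 to 44.9 CPM in mimic cells (1.12). It had a count in 14 of 30 8-cell control cells and in 36 of 39 32-cell control cells. Bmi1 and Pcgf6 encode alternative PCGF subunits that define types of PRC1. Bmi1 fell from 101.4 to 44.2 CPM in control (-1.18) and from 156.9 to 35.03 CPM in mimic cells (-2.13). Pcgf6 fell from 85.4 to 24.3 CPM in control (-1.77, but within 2-fold under 3 of 19 alternatives and -0.71 without the first 8-cell control run), and changed from 38.95 to 27.5 CPM in mimic cells (-0.49). Rnf2, the ubiquitin ligase of PRC1, fell from 355 to 154.3 CPM in control (-1.20, and -0.89 without the second 32-cell control run), whereas it went from 94.8 to 127 CPM in mimic cells (0.42). The paralog Ring1 and the reader genes Cbx2 and Cbx8 were under the minimum. Ring1 was at 1.49 to 4.53 CPM, Cbx2 at 0.413 to 10.7 CPM and Cbx8 at 0 to 5.54 CPM over the 4 groups. Cbx8 had 0 counts in 8-cell mimic cells, where the limit of 3 counts is 0.0971 CPM. Its 32-cell mimic level was at least 49.0-fold above that limit, which covers counting error alone. Its counts there came from 4 of 39 cells (10.3%), and 0 of 24 cells allows a share of up to 12.5%. A difference between these groups is therefore not shown.

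Kmt2a, a methyltransferase of lysine 4, appeared between the stages. It had a count in 3 of 30 8-cell control cells and in 0 of 24 8-cell mimic cells, which allows a share of cells with a count of up to 12.5% by counting error alone. At the 32-cell stage it had a count in 29 of 39 control cells (highest cell 374 CPM, median 31.8) and in 25 of 39 mimic cells (highest 324 CPM, median 6.89). The pooled level was 1.17 CPM (0.847 to 1.58) and 53.3 CPM (51.5 to 55.3) in control cells, a change of 4.65. In mimic cells the level was 0 and 36.7 CPM, at least 379-fold higher against a limit of 0.0971 CPM that covers counting error alone. The rest of the lysine 4 group differed. Kmt2c and Kmt2d, enzymes known for enhancers, changed by -0.06 and 0.85 in control and by -0.72 and 0.06 in mimic cells. Setd1a changed by -0.39 in control and by -1.24 in mimic cells, and 51.8% of its annotated exon bases are shared with another gene model on that strand, so its counts are uncertain. Kmt2b changed by -0.02 and 0.999, the latter just short of 2-fold, and Setd1b by -0.01 and 0.46.

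None of the 3 members that methylate lysines 36 or 79 changed by 2-fold with stage. Setd2, which places the trimethyl mark on lysine 36 along transcribed genes, changed by -0.53 in control and -0.56 in mimic cells. Nsd1 changed by 0.79 and 0.26, and Dot1l, the lysine 79 enzyme, by -0.81 and -0.02.

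Among the lysine 9 genes, Trim28 carried the highest level and fell in both treatments. It encodes KAP1, the scaffold that brings the methyltransferase SETDB1 to retroelements. Its cells ran from 179 to 1156 CPM (median 738) in 8-cell control and from 0.775 to 743 CPM (median 253) in 32-cell control. The pooled level went from 707 to 303 CPM in control (-1.22) and from 796 to 207 CPM in mimic cells (-1.94). Setdb1 changed in opposite directions, by 0.93 in control and by -1.48 in mimic cells. Suv39h2, a heterochromatin methyltransferase, was at 5.80 and 13.9 CPM in control (1.13) and at 24.4 and 23.9 CPM in mimic cells (-0.03). Its control change was -0.64 when the first run of 8-cell control cells was left out, which leaves 2 cells in that group. Ehmt1 and Ehmt2, which form the enzyme pair GLP and G9a, changed by -0.08 and -0.18 in control and by -0.76 and -1.22 in mimic cells.

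**Figure D2:**
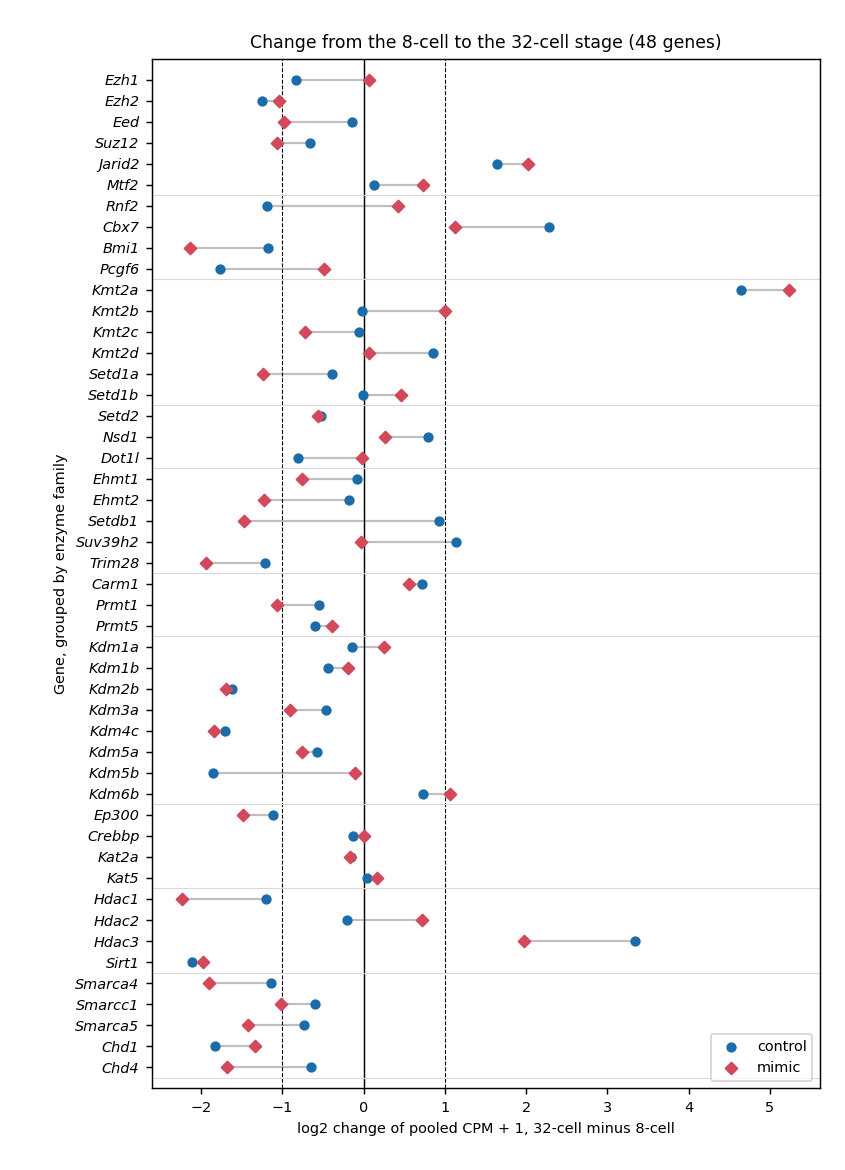
Change of pooled level from the 8-cell to the 32-cell stage for the 48 genes past the minimum, as log2 of pooled CPM + 1, with control cells as circles and mimic cells as diamonds; dashed lines mark 2-fold. Most points lie left of 0, Kmt2a, Hdac3, Cbx7 and Jarid2 lie beyond 1 on the right in both treatments, and Rnf2, Setdb1 and Kdm5b are among the genes whose points lie far apart.

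Of the 8 lysine demethylase genes past the minimum, 3 were lower by 2-fold in control and 2 in mimic cells, against 19.2% and 17.9% of all genes. Kdm5b, which removes methyl groups from lysine 4, ran from 196 to 773 CPM (median 543) over 8-cell control cells and from 0.775 to 482 CPM (median 121) over 32-cell control cells. Its pooled level fell from 560 to 154.6 CPM (-1.85) in control, but was 295 and 274.5 CPM in mimic cells (-0.10). Kdm2b, which also guides a form of PRC1 to CpG islands, changed by -1.62 and -1.70, and Kdm4c, a lysine 9 demethylase, by -1.70 and -1.84. The lysine 27 demethylase gene Kdm6b was the only member of its family that was higher in both treatments, by 0.73 in control and by 1.07 in mimic cells. Kdm1a changed by -0.15 and 0.25, Kdm1b by -0.44 and -0.19, Kdm3a by -0.47 and -0.90 and Kdm5a by -0.58 and -0.76. Kdm4a, under the minimum, was at 4.13 to 7.95 CPM.

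Of the acetyltransferases, Ep300 fell and its paralog Crebbp, encoding CBP, did not move by 2-fold. Ep300 fell from 144.3 to 66.2 CPM in control (-1.11) and from 98.5 to 34.4 CPM in mimic cells (-1.49). Crebbp was at 482, 478, 440 and 479 CPM in 8-cell control, 8-cell mimic, 32-cell control and 32-cell mimic cells, and every one of the 132 cells had a count of it. Kat2a changed by -0.15 and -0.17, and Kat5 by 0.05 and 0.16.

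The deacetylases held the second largest stage rise in control cells among members past the minimum, that of Hdac3, the enzyme of the NCoR and SMRT corepressor complexes. Hdac3 had a count in 11 of 30 8-cell control cells (highest 82.1 CPM, median 0) and in 37 of 39 32-cell control cells (highest 260.1 CPM, median 100.98), or in 10 and 37 after thinning every cell to 500000 counts. Pooled, it went from 9.58 CPM (8.61 to 10.6) to 106.2 CPM (103.6 to 108.9) in control (3.34), and from 12.3 to 51.2 CPM in mimic cells (1.98). Hdac1, the class I enzyme of the NuRD and SIN3 complexes, fell while Hdac3 rose. Hdac1 cells ran from 199 to 857 CPM (median 518) in 8-cell control and from 21.2 to 576 CPM (median 212) in 32-cell control. In mimic cells they ran from 120.2 to 785 CPM (median 508) and from 2.71 to 324 CPM (median 100.7). Its pooled change was -1.20 in control and -2.23 in mimic cells. Hdac2, its close paralog, changed by -0.20 and 0.72. Sirt1, an NAD-dependent deacetylase, fell from 205 CPM in both 8-cell groups to 46.6 CPM in control (-2.11) and 51.3 CPM under the mimic (-1.98).

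All 5 remodeller members were lower at the 32-cell stage in both treatments, 2 of them by 2-fold in control and 5 in mimic cells, where 19.2% and 17.9% of all genes were. Of the 8277 genes past the minimum, 3661 were below 0 in control and 3640 in mimic cells. Of 14 other remodeller genes past it, 9 were lower in control and 10 in mimic cells. Smarca2 (1.62 and 2.11) and Smarcb1 (0.85 and 0.81) were higher in both. Smarca4, the ATPase BRG1 of the BAF complex, fell from 501 to 227 CPM in control (-1.14) and from 586 to 156.4 CPM in mimic cells (-1.90). Chd1, a remodeller that binds methylated lysine 4, fell from 158.6 to 43.9 CPM (-1.83) and from 161.1 to 63.4 CPM (-1.33). Smarcc1, a BAF scaffold, changed by -0.60 and -1.02 (within 2-fold under 8 of 19 alternatives in mimic cells), Smarca5, the ISWI ATPase, by -0.74 and -1.42, and Chd4, the ATPase of NuRD, by -0.64 and -1.69. Of the 3 arginine methyltransferase genes, Prmt1 changed by -0.54 in control and -1.06 in mimic cells, Prmt5 by -0.60 and -0.39, and Carm1 by 0.72 and 0.55.

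The second comparison asked how the mimic changed these genes in 8-cell embryos. At this stage 2 of 48 members were higher in mimic cells by 2-fold or more (4.17%), against 8.28% of all genes past the minimum, and 4 were lower (8.33%), against 8.2%. The median change was 0.06 over all 53 members and 0.02 over all genes past the minimum. These shares are close to or below those of all genes.

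On the log2(CPM + 1) scale Rnf2 had the largest fall, and it carries the 8-base site printed above. Its cells ran from 60.9 to 777 CPM with a median of 364 in control and from 0 to 421 CPM with a median of 63.2 in mimic cells. The groups overlapped, but 30 of 30 control cells had a count and 2 of 24 mimic cells had none. The pooled level was 355 CPM (349 to 361) in control and 94.8 CPM (91.4 to 98.3) under the mimic, a change of -1.89. It was past 2-fold in all 13 alternatives, with changes from -2.31 to -1.58. At the 32-cell stage the same gene had 154.3 CPM (control) and 127 CPM (mimic), a change of -0.28. Over all genes past the minimum, the 312 with an 8-base site had a median change of 0.01 at the 8-cell stage and the 7762 without one 0.02. At the 32-cell stage these medians were -0.02 and 0.02. The 20 members with a 7-base match had a median change of 0.07 at the 8-cell stage and the other 33 of -0.01. Their medians at the 32-cell stage were -0.23 and -0.18, beside -0.03 and 0.04 over all genes past the minimum with and without such a match. Among other members lower by 2-fold at the 8-cell stage, Kmt2a has 7-base matches and Ezh1 and Pcgf6 have no match of either length. Setdb1 and Suv39h2, which were higher, each have a 7-base match. Whether the site of Rnf2 had a part in its fall was not tested.

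Ezh1 and Pcgf6, also Polycomb genes, were lower too. Others were higher by less than 2-fold, with Bmi1 at 0.63, Cbx7 at 0.47 and Eed at 0.47. Of the members past the minimum, 2 of 4 in PRC1 and 5 of 6 in PRC2 were below 0. Ezh1 had a count in 25 of 30 control cells (median 66.99 CPM, highest 320.2) and in 9 of 24 mimic cells (median 0, highest 183). Its pooled level was 99.7 CPM (96.5 to 103.02) and 28.1 CPM (26.3 to 30.1), a change of -1.79. Pcgf6 had 85.4 CPM in control against 38.95 CPM in mimic cells (-1.11), with cell medians of 70.6 and 39.7 CPM. It came within 2-fold under 5 of the 13 alternatives, with a change of -0.05 without the first run of control cells. Kmt2a did so under 3 and Ezh1 under 1 of them. Kmt2a counted among the 4 lower genes at 1.17 CPM against 0, at least 12.1-fold lower by counting error alone. Its 43 control counts came from 3 of 30 cells (10%), and 0 of 24 mimic cells allows a share of up to 12.5%. Kmt2a passed the minimum only through its 32-cell levels of 53.3 CPM (control) and 36.7 CPM (mimic). With every cell thinned to 500000 counts, which left out no cell, Ezh1 had a count in 24 of 30 control and 9 of 24 mimic cells, close to the shares without thinning. Mtf2 changed by -0.83 from 868 to 489 CPM. Kdm5b changed by -0.92, from 560 to 295 CPM, with cells from 9.19 to 873 CPM in the mimic group.

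The 2 higher genes were both lysine 9 methyltransferases. Setdb1 ran from 0 to 163.3 CPM with a median of 13.7 in control cells and from 0 to 415 CPM with a median of 74.3 in mimic cells. Pooled, it was at 43.6 CPM (41.5 to 45.8) and 113.7 CPM (109.9 to 117.5), a change of 1.36. Suv39h2 had a count in 10 of 30 control and 11 of 24 mimic cells (8 and 9 after thinning), and its highest cells were at 45.6 and 105.9 CPM. Its pooled change was 1.90, from 5.80 to 24.4 CPM, but -0.05 among cells whose Y-linked counts exceeded Xist. The other 3 genes of the lysine 9 family changed by 0.02 (Ehmt1), 0.27 (Ehmt2) and 0.17 (Trim28). All 5 remodellers were between 0.02 and 0.23. Changes nearest 0 were those of Sirt1 (0.00), Kdm6b (-0.01) and Crebbp (-0.01). The markers of the ICM summed to a median of 2175 CPM over control and 1222 CPM over mimic cells at this stage, and those of the TE to 290 and 422 CPM; their part in these changes was not tested.

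**Figure D3:**
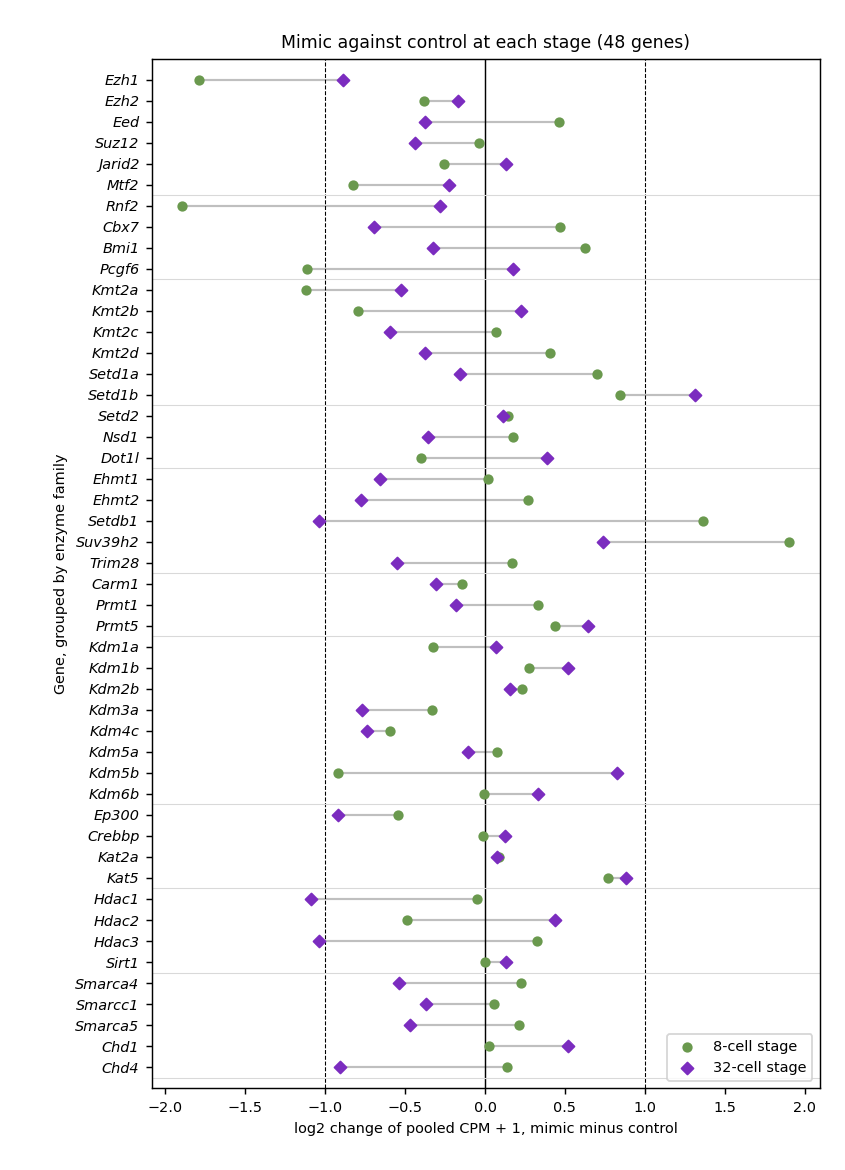
Change of pooled level between mimic and control cells for the 48 genes past the minimum, as log2 of pooled CPM + 1, at the 8-cell stage (circles) and the 32-cell stage (diamonds); dashed lines mark 2-fold. Rnf2 and Ezh1 are the lowest circles, Suv39h2 and Setdb1 the highest, and Setdb1 and Kdm5b have their circle and diamond on opposite sides of 0.

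The third comparison was that of mimic and control at the 32-cell stage. Here 1 of 48 members was higher by 2-fold (2.08%), against 7.48% of all genes past the minimum, and 3 were lower (6.25%), against 5.35%. The median change was -0.18 for the members and 0.02 for all genes, and TMM scaling moved the latter by -0.10. With that scaling 1 member was higher and 5 were lower, against 6.28% and 6.87% of all genes. The genes lower by 2-fold were the deacetylase genes Hdac1 (-1.09) and Hdac3 (-1.04) and the methyltransferase gene Setdb1 (-1.04). Setd1b, a lysine 4 methyltransferase, was higher (1.31).

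Hdac1 was at 229.7 CPM (226 to 234) against 107.7 CPM (104.9 to 110.5) under the mimic, and every cell of both groups had a count. Its cells overlapped, with medians of 212 and 100.7 CPM. Hdac3 was at 106.2 CPM (103.6 to 108.9) and 51.2 CPM (49.3 to 53.2), with medians of 100.98 and 50.5 CPM. Setdb1 was at 83.8 CPM (81.5 to 86.2) and 40.2 CPM (38.5 to 42.0), the reverse of its order at the 8-cell stage, with medians of 52.0 and 3.68 CPM. Setd1b, an H3K4 enzyme of the SET1 complex, had a low level throughout. Its control cells ran from 0 to 33.1 CPM with a median of 8.21, and its mimic cells from 1.74 to 54.2 CPM with a median of 22.1. Pooled, Setd1b was at 8.93 CPM (8.17 to 9.74) and 23.6 CPM (22.4 to 24.99). Under the 19 other settings, Hdac1 came within 2-fold in 7, Setdb1 in 8, Hdac3 in 9 and Setd1b in 1, none with a change of sign.

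The numbers in the cell titles form runs, 2 among the 32-cell control cells (24 and 15 cells) and 3 among the 32-cell mimic cells (18, 12 and 9). What a run stands for is not said in the labels. In 4 members, Setd1b, Kdm5b, Kdm6b and Kat5, every mimic run was higher than every control run, which held for 15.8% of all genes past the minimum. In 12 members every mimic run was lower, against 15.1%: Eed, Suz12, Mtf2, Kmt2a, Ehmt2, Setdb1, Trim28, Kdm3a, Ep300, Hdac1, Hdac3 and Chd4. The 12 are 25% of the 48 and the 4 are 8.33%. Hdac1 was at 263 and 179 CPM in the control runs and at 114.3, 122 and 83.6 CPM in the mimic runs. Setdb1 was at 74.1 and 98.3 CPM against 46.8, 42.1 and 29.7 CPM. Kat5, the acetyltransferase TIP60, stood at 30.5 and 25.2 CPM in control runs and 55.3, 52.3 and 51.7 CPM in mimic runs. Ep300 was at 67.4 and 64.3 CPM against 42.4, 40.3 and 18.05 CPM. Gaps could also be small, as in Kmt2a, where the control runs were at 53.3 and 53.4 CPM and the highest mimic run was at 52.5 CPM.

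**Figure D4:**
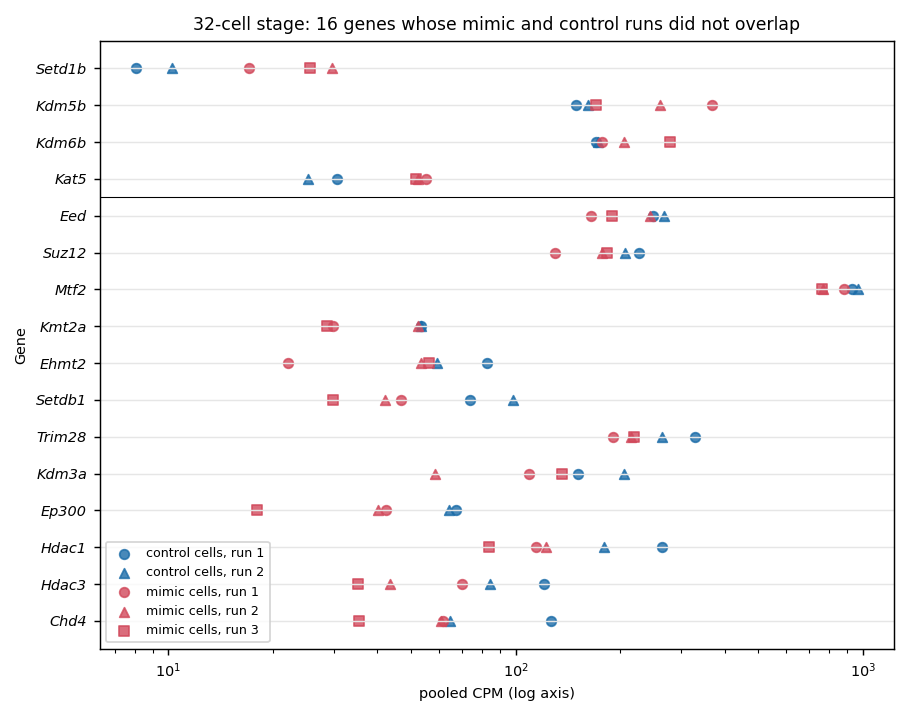
Pooled CPM (log axis) at the 32-cell stage of the 16 genes whose control runs (blue) and mimic runs (red) did not overlap, with the marker shape giving the run. The mimic runs lie to the right in Setd1b, Kdm5b, Kdm6b and Kat5 and to the left in the other 12 genes, with the gap clear in Hdac1 and Setdb1 and very small in Kmt2a.

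Further members with a common sign at both stages were Ezh1 (-1.79 and -0.89), Kdm4c (-0.60 and -0.74), Ep300 (-0.55 and -0.92), Prmt5 (0.44 and 0.64) and Kat5 (0.77 and 0.88). Others turned. Kdm5b changed by -0.92 at the 8-cell and by 0.82 at the 32-cell stage, where it stood at 154.6 CPM in control against 274.5 CPM in mimic cells, and Hdac2 by -0.49 and 0.44. Chd4 changed by 0.14 and -0.91, and the BAF genes Smarca4 and Smarcc1 by 0.23 and 0.06 at the first stage and by -0.54 and -0.37 at the second.

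**Figure D5:**
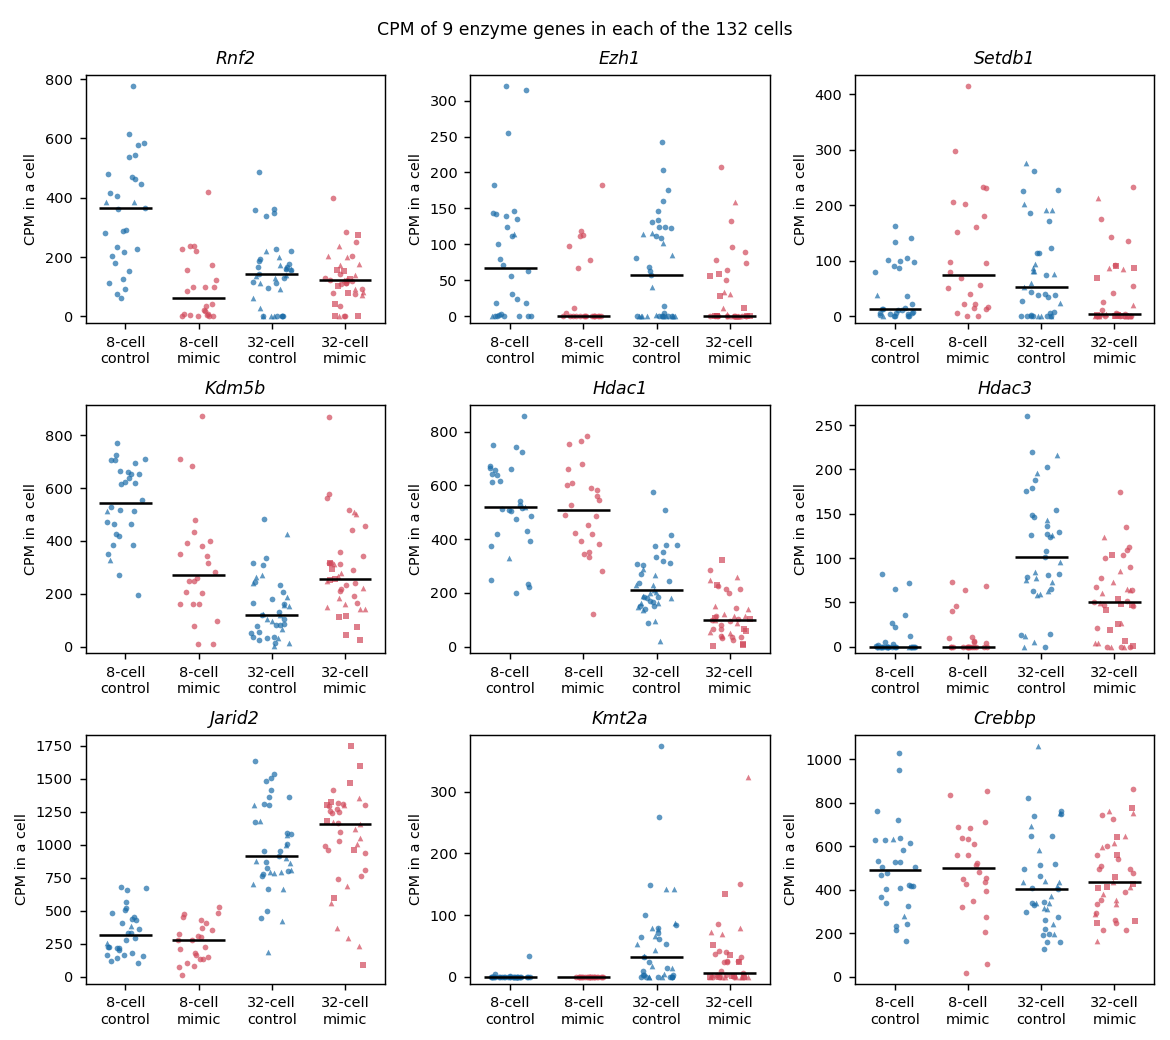
CPM of 9 genes in each of the 132 cells, by group (blue control, red mimic), with black bars for the group medians and circles, triangles and squares for the first, second and any later run of a group. Rnf2 and Ezh1 sit lower in the 8-cell mimic cells, Hdac1 and Hdac3 lower in the 32-cell mimic cells, Jarid2 higher in both 32-cell groups, and Crebbp covers a like range in all 4 groups.

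Clusters of the 32-cell cells, made without the members, split them into ICM-like and TE-like cells: 25 and 14 in control, and 15 and 24 in mimic. All 9 ICM markers were higher in the first cluster and all 9 TE markers in the second. The split depends on how it is made, since the sign of a marker score gave 6 control and 4 mimic ICM-like cells. Summed ICM markers had a median of 1578 CPM over control and 913 CPM over mimic cells, and TE markers 2786 and 4373 CPM. Pooled over cells, the ICM markers were at 1465 CPM and 1172 CPM and the TE markers at 5939 CPM and 5759 CPM, so the TE medians and the TE pooled sums were in opposite order. The part of these markers in the changes above was not tested. Among ICM-like cells alone, the mimic change was -0.84 for Hdac1, -1.25 for Hdac3, -1.40 for Setdb1 and 1.10 for Setd1b. Among TE-like cells alone, it was -0.90, -0.94, -0.64 and 1.72. The direction of each was the same in both classes, but these genes had been picked by their change over the same cells. Both classes also kept the full difference in Y-linked and Xist counts between control and mimic. The comparison therefore says nothing on the part of class shares in these changes.

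Between the classes, 5 members were higher by 2-fold in ICM-like control cells (10.4%, against 13.3% of all genes past the minimum) and 1 in TE-like control cells (2.08%, against 9.53%). The 5 were Ezh1, Pcgf6, Kdm3a, Kat5 and Hdac1. Ezh1 was at 90.0 CPM in ICM-like and 9.29 CPM in TE-like control cells, and at 45.6 and 20.6 CPM in mimic cells. By marker score the control levels of Ezh1 were 94.5 and 47.8 CPM, a difference of 0.97 that is short of 2-fold. Hdac1 was at 293 and 144.6 CPM in control and at 163.6 and 76.9 CPM in mimic cells. With classes by marker score, Hdac1 was higher on the ICM-like side by 0.51 (control) and 1.39 (mimic) on the log2 scale. Kdm3a, a lysine 9 demethylase, was at 241 and 81.4 CPM in control, and at 123 and 88.7 CPM in mimic cells. Kmt2b was the 1 gene higher in TE-like control cells, at 20.7 against 8.88 CPM. By marker score it was at 15.2 against 7.22 CPM, short of 2-fold. Mtf2 was at 699 CPM in ICM-like and 1278 CPM in TE-like control cells, and at 488 and 989 CPM in mimic cells. In mimic cells 4 members were higher in the ICM-like class and 3 in the TE-like class, where the shares over all genes were 7.22% and 9.23%.

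Other genes of the same 10 families, 80 of them past the minimum, gave the setting. With stage, 16 were higher and 22 lower by 2-fold in control cells, and 11 were higher and 26 lower in mimic cells. That is 20% and 27.5% in control, against 29% and 19.2% of all genes, and 13.75% and 32.5% in mimic cells, against 28.4% and 17.9%. In PRC1 the PCGF genes Pcgf1 and Pcgf5 fell with Bmi1 and Pcgf6, with changes of -3.14 and -4.19 in control and -3.22 and -2.98 in mimic cells. Pcgf3 changed by 0.02 and 0.83, and Pcgf2, under the minimum, by 1.05 and 1.25. In PRC2 Aebp2 and Rbbp4 fell with Ezh2, with changes of -1.65 and -1.36 in control and -1.06 and -1.27 in mimic cells, while Rbbp7 changed by -0.13 and 0.33. The lysine 4 cofactor genes Ash2l and Men1 changed by 1.98 and 3.11 in control and by 1.89 and -0.44 in mimic cells. Others of these cofactors changed in control cells by -1.23 (Wdr5), -0.35 (Rbbp5), 0.29 (Dpy30) and 0.27 (Cxxc1). At the 8-cell stage 8 of the 80 were higher and 4 lower under the mimic, with Men1 (3.33) and Phc2 (3.04) highest, or 10% and 5% against 8.28% and 8.2% of all genes. At the 32-cell stage 3 were higher (3.75%, against 7.48%) and 4 lower (5%, against 5.35%), among them the Y-linked Uty (-5.29) and the X-linked Kdm6a (1.15) and Phf8 (1.26), genes on the chromosomes by which these groups differed.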

How the data were processed

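Smart-seq2 libraries were made from hand-picked cells of mouse embryos. The authors aligned reads to mm10 with STAR (version 2.5.1b) and deposited RSEM (version 1.3.0) expected counts per gene and cell, which were already whole numbers. The study's filter (at least 3000 genes, under 10% mitochondrial counts) removed 0 of 132 cells, and 0 pairs of cells were identical. No doublet caller was run on these single picks. Counts of 13 mitochondrial genes were left out, counts were summed by group, and log2 changes used a pseudocount of 1. With 1 sample a group no test was made. Thinned shares used 500000 counts a cell. Genes counted as past 2-fold had a mean of at least 10 CPM. Seurat clustering (resolution 0.6) left out the members, the wider list and the markers. Seed sites were searched in GENCODE M21 on the same genome build, a release that differs from the annotation used for counting. Python (version 3.11.15), pandas (version 2.3.3) and SciPy (version 1.17.1) were used, and the computation of changes was tested on simulated counts. The members and lists were chosen with earlier results of these data known. Detail was given to members past 2-fold in any comparison and to the highest member of each family per kilobase. Counting error is the only error in the intervals and limits, because PCR copies of a molecule were counted as separate reads. Counts could not be assigned by strand, so reads in exons shared with a gene on the other strand, as in Carm1 (21.1% of exon bases) and Kat5 (12.1%), cannot be separated.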

Additional observations from a re-analysis of the deposited data

How the results depend on the processing

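The number of members past 2-fold with stage stayed between 16 and 27 in control cells and between 21 and 28 in mimic cells over 19 alternatives each, against 18 and 23. Of all genes 26.3% to 40.5% were then higher and 17.3% to 24.6% lower in control, and 24.6% to 29.2% and 15.9% to 28.5% in mimic cells. The members' median change ran from -0.59 to 0.01 in control and from -0.68 to -0.37 in mimic cells with stage, and under the mimic from 0.00 to 0.54 at the 8-cell and from -0.29 to -0.08 at the 32-cell stage. The median of all genes ran from 0.08 to 0.48, from 0.00 to 0.23, from -0.00346 to 0.28 and from -0.08 to 0.09 in the same order. Its values of 0.48 and 0.28 came without the first run of 8-cell control cells. At the 8-cell stage the mimic count of 6 became 18 without the first run of control cells, which leaves 2 control cells, and 14 in cells where Y-linked counts exceeded Xist; of all genes 33.2% and 17.9% were then higher and 12.9% and 19.9% lower. At the 32-cell stage the count of 4 became 2 with a pseudocount of 5, 7 without the second control run, 10 without the first mimic run and 7 in ICM-like cells; over these settings between 5.11% and 10.6% of all genes were higher and between 3.61% and 9.92% lower. Settings chosen after seeing the data gave 9 in ICM-like cells from clusters without X- and Y-linked genes (10.2% of all genes higher, 14.2% lower), 14 in ICM-like cells by marker score (16.4% and 22%), and 6 at the 8-cell stage without the 3 mimic cells under 5000 genes. The causes were not tested, beyond the smaller number of cells. The ICM-like share was 64.1% of control and 38.5% of mimic cells, 20.5% of mimic cells by clusters without X- and Y-linked genes, and 15.4% and 10.3% by marker score. Members with a seed site numbered 1 with 8 bases and 20 with 7 bases. Suv39h2 reversed, with a stage change in control of -0.64 without the first 8-cell control run and a mimic change at the 8-cell stage of -0.0529 where Y-linked counts exceeded Xist. No paired analysis was possible because no result came from a test and the numbers name single cells. Embryos cannot be told apart, so the spread between them is unknown, and low members such as Kmt2b and Setd1b rest on few counts per cell.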
